A study of Homo sapiens with 2 samples.

Results

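Small nucleolar RNA host genes are long noncoding RNA (lncRNA) genes whose introns carry small nucleolar RNAs (snoRNAs). They were taken here as all genes named SNHG followed by a number, together with GAS5, DANCR, ZFAS1 and EPB41L4A-AS1. Of the 57773 gene IDs in the count data, 31 belonged to this family, and SNHG4 was not analysed here. All 31 are lncRNA genes in GENCODE 44. A count of 10 reads or more in either library was reached by 28 of them, and these were compared between the lines.

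RNA was sequenced from 2 cell lines of human B-cell precursor leukemia (acute lymphoblastic, BCP-ALL), both grown in RPMI with serum, with no drug treatment named in the labels, and 1 library was made per line. REH cells carry the ETV6/RUNX1 fusion and have lost the other ETV6 allele, whereas 697 cells lack that fusion. In the study, RNA tracks of REH and 697 were shown beside histone acetylation at lncRNA loci. Its search for lncRNAs tied to the fusion rested on patient samples, a panel of other cell lines and a knockdown of the fusion in REH. With 1 line on each side here, the fusion cannot be told apart from any other difference between the lines. No replicate was sequenced, so the ratios below describe these 2 libraries and carry no p-value.

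After splicing, the intron of a host gene is trimmed to release the snoRNA, which guides chemical modification or cleavage of ribosomal and spliceosomal RNA. Box C/D snoRNAs direct 2′-O-methylation and box H/ACA snoRNAs direct pseudouridylation, each bound by its own set of core proteins. The spliced exons that are left over form the lncRNA, which for many hosts starts with a pyrimidine tract like that of ribosomal protein mRNAs, is bound by ribosomes and is degraded by nonsense-mediated decay (NMD). The count of a host gene covers its exons, and a nested snoRNA gene has a count of its own. Reads in exon bases that the annotation gives to both genes are dropped from both counts.

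Gene counts summed to 45188375 reads in REH and 41097497 reads in 697, and 3 reads, the smallest count taken as detectable, correspond to levels of 0.0597 and 0.0812 CPM, the read count normalized to scaled library totals. Multimapping reads, which are not counted for any gene, made up 10.8% of REH and 15.4% of 697 reads. Of 10 B-cell precursor markers, 9 reached 10 reads in REH and all 10 did so in 697, and the exception was VPREB1, with 3 reads in REH and 10039 in 697. T cell markers summed to 0.935 CPM in REH and 0.298 CPM in 697, and erythroid markers to 0.418 and 0.379 CPM. Myeloid markers summed to 252.7 CPM in REH, where 3 of 6 reached 10 reads, and to 2.27 CPM in 697, where 2 of 6 did. Nearly all of this was MPO, which stood at 251.5 CPM in REH and 0.325 CPM in 697, while ELANE was at 0 reads in both and LYZ at 1 and 2 reads. The part of this MPO signal in the results was not tested. Fewer cells that express a gene and less RNA per cell cannot be told apart in such bulk samples.

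The family as a whole was lower in REH. The median log2 ratio, REH over 697, was -0.82 over the 28 genes, and -0.51 with unscaled totals. It was 0.05 over all 19145 genes compared and 0.29 over the 3046 lncRNA genes. Single host genes ran from -8.12 to 6.76. The 95% order-statistic interval of the median over the 28 genes was -1.33 to -0.54. That interval takes the genes as independent and does not stand for replicate cultures. A ratio below 0 was found for 24 of the 28, compared with 47.9% of all genes and 41.6% of lncRNA genes. Of these 24, 23 had a 95% counting interval wholly below 0, which was the case for 38.2% of all genes and 25.5% of lncRNA genes. Intervals lay wholly above 0 for 4 family members (40.1% of all genes, 35.5% of lncRNA genes), and 1 interval, that of SNHG9, spanned 0. The counting intervals are exact Clopper-Pearson intervals that cover counting error only, not the spread between cultures.

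With an absolute log2 ratio of 1 or more, 11 host genes were higher in 697 (17.4% of all genes) and 2 were higher in REH (22.4% of all genes). With an absolute log2 ratio of 2 or more, 2 were higher in 697 (8.15% of all genes) and 1 in REH (12.5% of all genes). Among genes that reached 100 reads in either line, the median was 0.25 over 942 lncRNA genes and -0.85 over 26 host genes. Library scaling matters for these values. Totals without scaling moved the median of all genes by 0.31 on the log2 scale and left 22 host genes below 0, with SNHG15 and SNHG9 turning to 0.16 and 0.03.

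**Figure D1:**
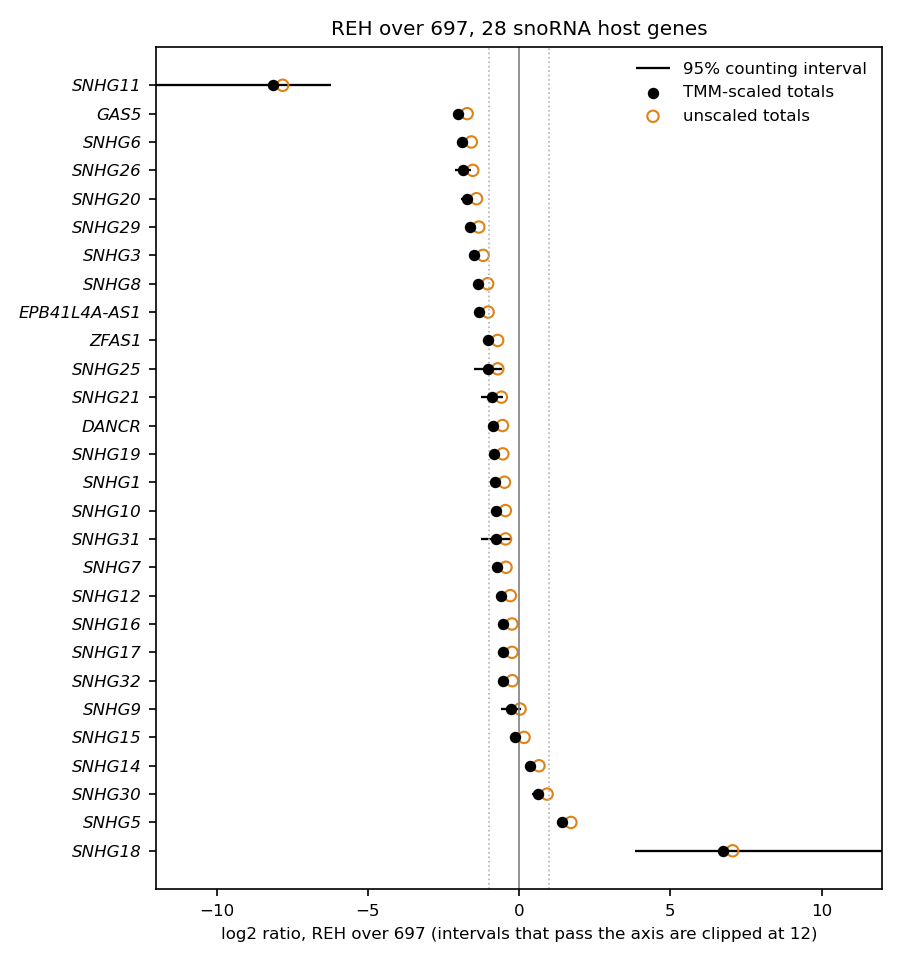
The log2 ratio, REH over 697, is plotted for 28 snoRNA host genes with its 95% counting interval (black) and with unscaled library totals (orange circles). Of the 28 black points, 24 lie left of 0, and SNHG5 and SNHG18 are the only ones to the right of the dotted line at 1.

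The family also took a smaller share of the lncRNA reads in REH. Host genes took 12.4% of all reads in lncRNA genes in REH (95% Clopper-Pearson interval 12.3 to 12.4%) and 24.9% in 697 (24.8 to 25.1%). Their summed level was 1604 CPM in REH and 3498 CPM in 697, a log2 ratio of -1.12. Without GAS5 and SNHG29, which differed most in CPM, the summed level was 1144 CPM in REH and 1916 CPM in 697, a log2 ratio of -0.74. The 5 host genes with the most reads held 59.8% of the family's reads in REH and 69.2% in 697.

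Levels of different genes were compared per kb of summed exon. Lengths came from GENCODE 44, whereas the reads were counted on another annotation, since only 51996 of the 57773 gene IDs matched. The summed exon was 1.80 kb for SNHG32 and 12.6 kb for SNHG5, and the ranks below depend on such gene models. SNHG32, the host of SNORD48 and SNORD52 in the major histocompatibility complex class III region, led in REH with 89.6 CPM per kb and reached 129.4 CPM per kb in 697. GAS5 led in 697 with 129.9 CPM per kb but ranked 4 in REH with 31.9 CPM per kb. SNHG1 stood at 57.8 CPM per kb in REH and 99.8 in 697, and SNHG29 at 33.8 and 105.3. SNHG19 was among the 5 highest in REH alone (29.6 CPM per kb, 53.2 in 697), and SNHG6 in 697 alone (78.7 CPM per kb, 21.3 in REH). The order of the leading genes therefore differed between the lines, while SNHG32, SNHG29, SNHG1 and GAS5 were in the top 5 of both. These 4 genes lay above the 99th percentile of lncRNA genes in REH, at percentiles of 99.5 to 99.8.

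**Figure D2:**
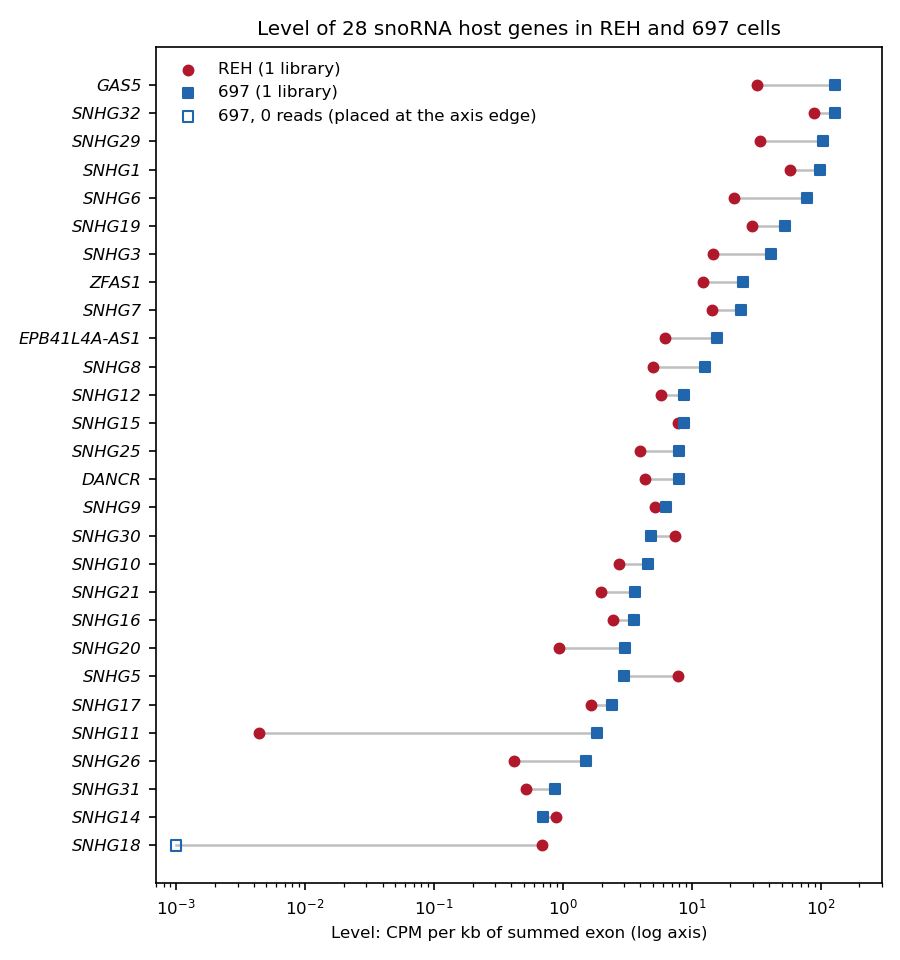
The level of each host gene in CPM per kb of summed exon (log axis) is plotted for REH (red circles) and 697 (blue squares), 1 library each, and an open square marks 0 reads. The blue square lies to the right of the red circle for 24 of the 28 genes, most widely for SNHG11, GAS5 and SNHG6 among those that were higher in 697.

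Among the hosts of box C/D snoRNAs, GAS5 showed the largest difference in CPM apart from SNHG29. GAS5 lies at chr1:173858559-173868882 (minus strand, GRCh38), hosts 10 box C/D and 1 box H/ACA snoRNAs in RefSeq, and is known for an exonic transcript that accumulates in growth arrest and can bind the glucocorticoid receptor. It had 7913 reads (157.4 CPM) in REH and 23677 reads (640.8 CPM) in 697, so 697 held 4.07 times the REH level (a log2 ratio of -2.03, counting interval -2.06 to -1.99). This interval holds -2, and counting the reads of the second strand column alone gave -1.98.

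SNHG29, formerly named LRRC75A-AS1, hosts SNORD49A, SNORD49B and SNORD65. It was the host gene with the most reads in both lines, 15200 reads (302.4 CPM) in REH and 34799 reads (941.9 CPM) in 697 (a log2 ratio of -1.64, interval -1.67 to -1.61). Reads assigned on the 2 strands separately added up to 1.5 times its reads without strand in REH and 1.51 times in 697, and reads in stretches that genes of both strands share, here with LRRC75A, are left out when strand is ignored. The excess was alike in both lines.

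SNHG6 hosts SNORD87 and had 2704 reads (53.8 CPM) in REH and 7348 reads (198.9 CPM) in 697 (a log2 ratio of -1.89). SNHG26, the host of SNORD93, had 158 reads (3.14 CPM) in REH and 416 (11.3 CPM) in 697 (a log2 ratio of -1.84, interval -2.11 to -1.57). ZFAS1, which runs antisense to the start of ZNFX1 and hosts SNORD12, SNORD12B and SNORD12C, had 5152 reads (102.5 CPM) in REH and 7655 (207.2 CPM) in 697 (a log2 ratio of -1.02). SNHG25, the host of SNORD104 and SNORA50C, had 68 reads (1.35 CPM) in REH and 101 (2.73 CPM) in 697, with a wide interval around its log2 ratio of -1.01 (-1.48 to -0.56). ZFAS1 and SNHG25 sit at the threshold of 1 and fell inside it under unscaled totals, at -0.71 and -0.70.

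SNHG1, the U22 host gene with 8 box C/D snoRNAs in its introns, had 11544 reads (229.7 CPM) in REH and 14659 (396.8 CPM) in 697 (a log2 ratio of -0.79, interval -0.82 to -0.75). SNHG32 had 8108 reads (161.3 CPM) in REH and 8613 (233.1 CPM) in 697 (a log2 ratio of -0.53), and SNHG19, the host of SNORD60, had 914 (18.2 CPM) and 1207 (32.7 CPM, log2 ratio -0.85). These abundant C/D hosts were therefore lower in REH by less than GAS5 or SNHG29. Their counting intervals do not overlap those of GAS5 and SNHG29, but such intervals cover counting error only and are narrow at these read counts.

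Hosts of box H/ACA snoRNAs and of Cajal body RNAs (scaRNAs) were also mostly lower in REH. SNHG11, which hosts SNORA60 and SNORA71E, had 1 read in REH (0.0199 CPM) and 307 reads in 697 (8.31 CPM). Its log2 ratio was -8.12 with a counting interval of -14.01 to -6.22, wide because it rests on that 1 read. SNHG17, its neighbour on chromosome 20 and the host of SNORA71A to SNORA71D, had 998 reads (19.9 CPM) in REH and 1067 (28.9 CPM) in 697 (a log2 ratio of -0.54). The near absence in REH was thus found for SNHG11 but not for the adjacent host gene.

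SNHG3 hosts SNORA73A and SNORA73B, the U17 snoRNAs that act in cleavage of the ribosomal RNA precursor. It had 2985 reads (59.4 CPM) in REH and 6187 (167.5 CPM) in 697 (a log2 ratio of -1.50). SNHG8, the host of SNORA24, had 1671 reads (33.2 CPM) in REH and 3122 (84.5 CPM) in 697 (a log2 ratio of -1.35). EPB41L4A-AS1, the host of SNORA13, had 1348 reads (26.8 CPM) and 2494 reads (67.5 CPM, log2 ratio -1.33). SNHG20, the host of SCARNA16, had 285 reads (5.67 CPM) and 688 reads (18.6 CPM, log2 ratio -1.71). These 4 genes were 2.52 to 3.28 times higher in 697.

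DANCR, a lncRNA known for holding progenitor cells undifferentiated and the host of SNORA26, had 2238 reads (44.5 CPM) in REH and 2976 (80.5 CPM) in 697 (a log2 ratio of -0.86). SNHG12, which hosts SNORD99 and 3 box H/ACA snoRNAs, had 1244 reads (24.7 CPM) and 1383 reads (37.4 CPM, log2 ratio -0.60). SNHG15, the host of SNORA9, had 1566 reads (31.2 CPM) in REH and 1271 (34.4 CPM) in 697, and its log2 ratio of -0.14 (interval -0.25 to -0.04) turned positive without scaling, as did that of SNHG9. The other host genes with at least 10 reads and a ratio between -1 and 0 were SNHG7, SNHG9, SNHG10, SNHG16, SNHG17, SNHG21 and SNHG31, with log2 ratios from -0.89 for SNHG21 to -0.27 for SNHG9. Of these, SNHG16 had the highest ratio of reads assigned by strand to reads without strand, 2.13 in REH and 2.22 in 697. No exon base of SNHG16 is shared with another GENCODE 44 gene whose ID is in the count data. Overlaps with gene IDs not matched to GENCODE 44 were not searched.

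Against the family's direction, 4 host genes were higher in REH. SNHG5, the U50 host gene first found at a chromosome breakpoint in a B-cell lymphoma, lies at chr6:85650491-85678932 (minus strand, GRCh38) and hosts SNORD50A and SNORD50B. It had 5008 reads (99.6 CPM) in REH and 1388 reads (37.6 CPM) in 697, 2.65 times higher in REH (a log2 ratio of 1.41, interval 1.32 to 1.49). Its ratio without scaling was 1.71. SNHG5 was the 1 abundant host gene on this side of the threshold.

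SNHG18, the host of SNORD123 at chr5:9546170-9550725 (plus strand, GRCh38), had 73 reads (1.45 CPM) in REH and 0 reads in 697. With 697 set at the floor of 3 reads per library, SNHG18 was 17.9-fold higher in REH (a log2 ratio of 4.16). The counting interval of SNHG18 starts lower, at a log2 ratio of 3.83. SNHG30, the host of SNORD7, had 606 reads (12.1 CPM) in REH and 290 (7.85 CPM) in 697 (a log2 ratio of 0.62, interval 0.41 to 0.83). SNHG14, the very long host in the imprinted Prader-Willi region that carries the SNORD115 and SNORD116 clusters, had 5497 reads (109.4 CPM) in REH and 3168 (85.7 CPM) in 697, a log2 ratio of 0.35 (interval 0.29 to 0.41). Below 10 reads in both lines were SNHG22 with 6 reads in REH and 1 in 697, SNHG27 with 1 and 0, and SNHG28 with 0 and 1.

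A few of the encoded snoRNAs show what kind of guide these hosts carry. RefSeq places 149 snoRNAs in 30 of the 31 host genes, 83 of them in SNHG14 alone, and 16 hosts carry 1 snoRNA each. The sequences below are those of GENCODE 44 on GRCh38, on the transcript strand, with box C (TGATGA, within the first 20 bases) and box D (CTGA, within the last 15 bases) in capitals for C/D snoRNAs and the 3′ ACA (within the last 8 bases) in capitals for H/ACA snoRNAs. They are SNORD50B (chr6:85677589-85677658, minus strand) and SNORD123 (chr5:9548836-9548905, plus strand) of the hosts SNHG5 and SNHG18, which were higher in REH, and SNORD49A (chr17:16440036-16440106), SNORD49B (chr17:16439505-16439576), SNORA60 (chr20:38449370-38449503) and SNORA73B (chr1:28508559-28508762), all plus strand, of the hosts SNHG29, SNHG11 and SNHG3, which were among those higher in 697. They are examples of both kinds and both directions, not the snoRNAs of the lowest ratios, and no sequence was read for the snoRNAs of GAS5.
SNORD50B: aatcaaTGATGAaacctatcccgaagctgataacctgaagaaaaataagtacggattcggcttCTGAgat
SNORD123: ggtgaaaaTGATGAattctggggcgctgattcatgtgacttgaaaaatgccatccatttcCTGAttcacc
SNORD49A: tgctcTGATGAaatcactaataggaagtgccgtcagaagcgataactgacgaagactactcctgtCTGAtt
SNORD49B: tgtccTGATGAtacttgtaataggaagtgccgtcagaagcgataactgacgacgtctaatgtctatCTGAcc
SNORA60: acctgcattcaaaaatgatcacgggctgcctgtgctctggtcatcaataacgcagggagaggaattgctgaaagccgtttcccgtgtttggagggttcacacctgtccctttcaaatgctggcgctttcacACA
SNORA73B: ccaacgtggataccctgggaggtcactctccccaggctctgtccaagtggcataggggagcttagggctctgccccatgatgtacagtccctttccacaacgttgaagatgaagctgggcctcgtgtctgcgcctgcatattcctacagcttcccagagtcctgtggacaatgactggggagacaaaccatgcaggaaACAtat

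SNORD49A and SNORD49B of SNHG29 share an unbroken run of 35 bases and differ mainly at their ends. Both boxes were found in 89 of 109 C/D snoRNA genes nested in the host genes with a sequence (81.7%), and in 62.0% of the 313 genes named SNORD in the annotation. Many of the 109 are copies of SNORD115 or SNORD116 within SNHG14 and are not independent. The ACA was found in 21 of 24 nested H/ACA snoRNA genes (87.5%) and in 82.2% of the 214 genes named SNORA. Among the 24, SNORA16A and SNORA17B are each counted under repeated gene IDs at the same place. The 313 and 214 genes include the nested ones. Matches were sought on the transcript strand only and are descriptions of letters, not of function.

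Reads in the nested snoRNA genes themselves gave a separate, much sparser readout. A column of reads was found for 99 nested snoRNA genes in 21 host genes, and together they held 436 reads in REH and 527 in 697. Mature snoRNAs are shorter than the fragments of a standard library, and reads from the surrounding intron or unspliced host are counted here too. In 12 hosts the nested genes had at least 20 reads over both libraries, and in 11 of these the nested ratio had the sign of the host ratio. In EPB41L4A-AS1 (14 reads in each line), ZFAS1 (76 in REH, 77 in 697), SNHG19 (33, 32) and SNHG12 (14, 13), counts were near equal. Their negative sign comes from the library totals and scaling. SNHG22 also counts among the 11, with a host that was not compared. Over the 12 hosts, the nested counting interval excluded 0 in 5 and held the host's own ratio in 8.

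SNORA73B in SNHG3 had 18 reads in REH and 101 in 697 (a log2 ratio of -2.90, interval -3.74 to -2.20), a larger difference than that of its host exons. SNORD104 in SNHG25 had 96 and 124 reads (a log2 ratio of -0.81), more than the host exons in each line, and the SNORA71 genes of SNHG17 had 28 and 54 (a log2 ratio of -1.38). SCARNA13 in SNHG10 had 11 and 27 reads (a log2 ratio of -1.70, interval -2.90 to -0.68). SCARNA17 in SNHG22, a host with under 10 reads itself, had 18 reads in REH and 2 in 697. The SNORD116 genes of SNHG14 had 52 reads in REH and 23 in 697 over 25 copies, while the 45 SNORD115 copies had 1 and 2 reads. Of the 12 hosts with at least 20 nested reads, SNHG32 was the 1 whose nested reads went against it, with 22 reads for SNORD48 and SNORD52 in REH and 10 in 697 (a log2 ratio of 0.66, interval -0.44 to 1.94). SNORA71, SNORD115 and SNORD116 are families of related copies, and any read that maps to more than 1 copy is not counted. The snoRNAs of GAS5, SNHG1, SNHG5 and SNHG29 had no reads column among those matched, so their own levels were not analysed here.

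The start of a transcript is where the 5′ terminal oligopyrimidine (TOP) feature of translation-related genes lies, that is, a first C followed by an unbroken run of C and T. RefSeq starts on GRCh38.p14 were at hand for 27 of the 31 host genes. A first C with a run of at least 5 pyrimidines was found at 6 of the 27 (22.2%), at 17 of 40 starts of 31 protein-coding snoRNA hosts (42.5%), and at 4.07% of the 35116 starts in the table. These windows hold 20 bases before the RefSeq start and 30 from it, with the run in capitals. They cover the 6 host genes with the feature and SNHG29, an abundant host without it at that start. They lie at chr6:31834896-31834945 (SNHG32, plus), chr6:85678704-85678753 (SNHG5, minus), chr20:49278622-49278671 (ZFAS1, plus), chr16:2155329-2155378 (SNHG19, minus), chr1:28581844-28581893 (SNHG12, minus), chr5:9546180-9546229 (SNHG18, plus) and chr17:16438967-16439016 (SNHG29, plus).
SNHG32: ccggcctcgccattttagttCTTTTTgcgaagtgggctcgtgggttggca
SNHG5: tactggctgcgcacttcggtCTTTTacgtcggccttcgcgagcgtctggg
ZFAS1: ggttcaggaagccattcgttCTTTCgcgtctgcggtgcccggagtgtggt
SNHG19: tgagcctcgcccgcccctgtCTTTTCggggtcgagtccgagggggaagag
SNHG12: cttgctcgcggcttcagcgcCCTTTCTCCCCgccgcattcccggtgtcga
SNHG18: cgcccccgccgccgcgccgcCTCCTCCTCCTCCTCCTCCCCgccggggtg
SNHG29: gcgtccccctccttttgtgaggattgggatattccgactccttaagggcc

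SNHG32, SNHG5, ZFAS1 and SNHG19 share a first C with at least 4 pyrimidines after it, of which T makes up most, while the 21-base run of SNHG18 is a CTC repeat. Genes of both directions were among the 6, since SNHG5 and SNHG18 were higher in REH and ZFAS1 was higher in 697. The median log2 ratio was -0.56 over these 6 and -0.87 over the 18 other host genes compared that had a start. That split rests on RefSeq starts, and GAS5 and SNHG29, with GENCODE starts 163 and 220 bp away, count among the 18. A RefSeq start can lie some distance from the start used in cells. The median distance between the RefSeq and GENCODE starts was 68 bp over the 27 host genes, but it exceeded 1000 bp for 4 of them, namely SNHG12 (1259 bp), SNHG20 (1927 bp), SNHG27 (37251 bp) and SNHG14 (154975 bp), so a missing run says only that these letters are not at this position.

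Protein-coding genes that also carry snoRNAs in their introns were compared as a second kind of host. Their median log2 ratio was -1.18 over 39 genes, 38 of which were below 0 and 25 at -1 or lower (17.4% of all genes). The lowest was RPL37A, a ribosomal protein gene, with 341.1 CPM in REH and 1226 CPM in 697 (a log2 ratio of -1.85). The highest was PPAN, a ribosome biogenesis factor, with 352 reads in REH and 208 reads in 697 (a log2 ratio of 0.31). The 23 ribosomal protein genes among them had a median of -1.43 and the other 16 coding hosts a median of -0.55. Coding and noncoding snoRNA hosts thus lay on the same side of 0, with the ribosomal protein genes lowest. Ribosomal protein genes have many processed pseudogenes, and the share of multimapping reads, which are dropped, differed between the lines (10.8% in REH, 15.4% in 697). The part of this difference in the result was not tested.

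The proteins that bind snoRNAs differed less. The 8 core proteins had a median log2 ratio of -0.34. All 4 proteins of the C/D particle were lower in REH, namely the methyltransferase FBL (156.7 CPM in REH, 282.7 in 697, log2 ratio -0.85), NOP56 (245.3 and 376.6 CPM, -0.62), NOP58 (135.1 and 179.3 CPM, -0.41) and SNU13 (121.6 and 145.8 CPM, -0.26). Of the H/ACA proteins, the pseudouridine synthase DKC1 was lower in REH (171.0 CPM in REH, 256.9 in 697, log2 ratio -0.59), NHP2 was slightly lower in REH (28.2 and 30.7 CPM, -0.12), and GAR1 (33.2 and 30.3 CPM, 0.13) and NOP10 (54.6 and 43.8 CPM, 0.32) were higher in REH. The median was -0.51 over the C/D proteins and 0.01 over the H/ACA proteins. The differences of SNU13 and NHP2 are smaller than the shift of 0.31 under unscaled totals, which turns both to the side of REH and brings the median of the 8 to -0.03. None of the 8 reached an absolute log2 ratio of 1, which 11 host genes passed on the side of 697 and 2 on the side of REH.

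Factors that assemble snoRNA particles had a median log2 ratio of -0.09 over 11 genes, from -0.51 for NOLC1, a nucleolar and Cajal body chaperone (259.0 CPM in REH, 367.7 in 697), to 0.15 for ZNHIT6, a C/D assembly factor (56.4 and 50.9 CPM). NMD and exon junction factors, which act in the decay of the host exons, had a median of 0.09 over 17 genes, and the highest was the helicase DHX34 at 0.58 (41.3 CPM in REH, 27.6 in 697). Neither list held a gene with an absolute log2 ratio of 1. The assembly and NMD lists thus stayed near the median of all genes, and the hosts, coding and noncoding, did not.

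**Figure D3:**
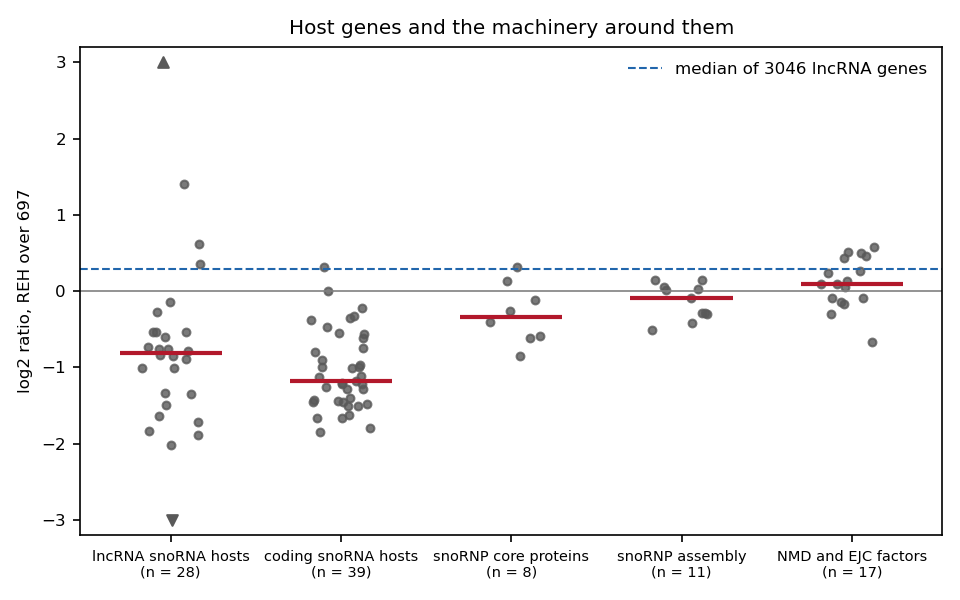
Each point is the log2 ratio, REH over 697, of 1 gene in 5 lists, red bars are list medians, and the dashed line is the median of 3046 lncRNA genes. Triangles stand for SNHG18 and SNHG11, which lie beyond the axis. The medians run from -1.18 for coding hosts and -0.82 for lncRNA hosts to 0.09 for NMD and exon junction factors.

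Neighbouring genes were set beside each host gene as a description of its locus. For 24 of the 28 compared, at least 5 protein-coding genes with enough reads lay within 1 Mb. The host was below the neighbourhood median for 21 of the 24 and outside the interquartile range of its neighbours for 20. Shares over all genes were not set beside these counts, and most host genes had a negative ratio to begin with. An interquartile range also leaves out the outer parts of any set of genes by definition. The counts therefore do not show that host genes differ from their loci more than other genes do. SNHG11 and SNHG17 have the same 11 neighbours, so their results are not independent. The same limit holds for SNHG3 and SNHG12, SNHG9 and SNHG19, and SNHG16 and SNHG20, which lie within 1 Mb of each other. For 5 host genes, SNHG3, SNHG11, SNHG17, SNHG20 and SNHG26, every neighbour had a higher ratio, and for SNHG18 every neighbour had a lower ratio. Neighbourhood medians ran from -1.32 around SNHG6 to 0.77 around SNHG19. SNHG6, at -1.89, thus lay in a neighbourhood that was itself low, while SNHG3 (-1.50) lay among 26 neighbours with a median of 0.15.

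**Figure D4:**
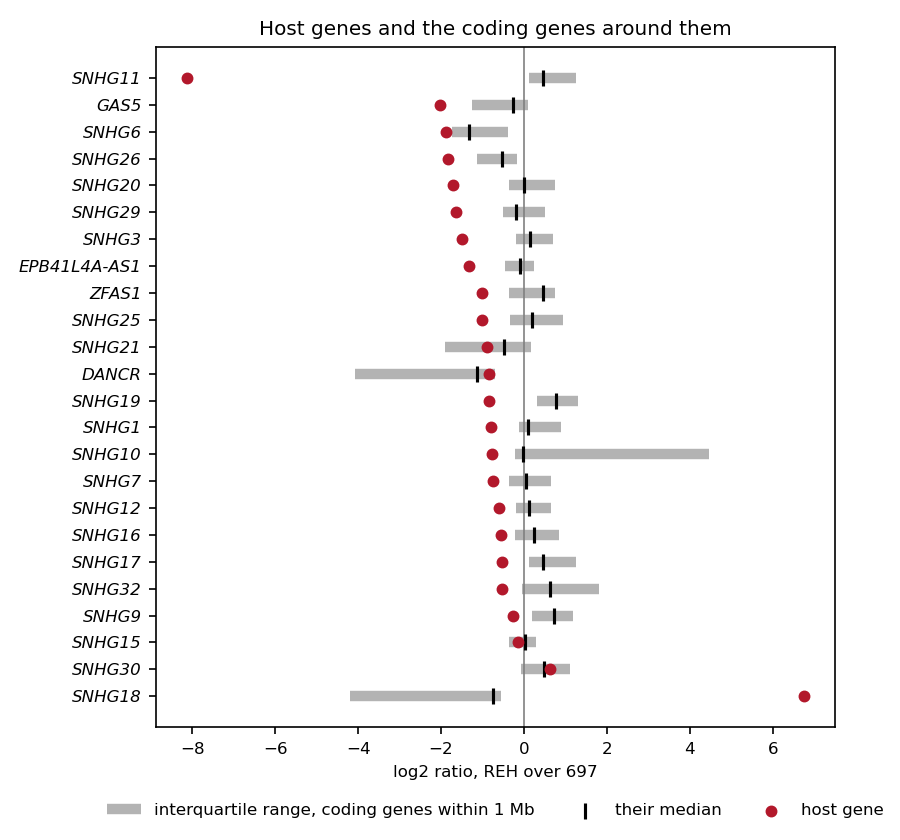
For each of 24 host genes, the log2 ratio, REH over 697 (red point), is set against the interquartile range (grey bar) and median (black tick) of protein-coding genes within 1 Mb. The red point lies left of the black tick for 21 of the 24 genes.

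Protein-coding genes that start within 1000 bp of a host gene on the opposite strand gave a closer comparison. SEMA5A, a semaphorin gene whose start lies 95 bp from that of SNHG18, had 27 reads (0.537 CPM) in REH and 1307 reads (35.4 CPM) in 697, a log2 ratio of -6.02 (interval -6.65 to -5.49). This pair ran in opposite directions, with SNHG18 read in REH alone and SEMA5A almost in 697 alone. SLC3A2, an amino acid transporter subunit that starts 51 bp from SNHG1, had a log2 ratio of 0.08 (397.4 CPM in REH, 375.4 in 697), compared with -0.79 for SNHG1. ZNFX1, a helicase-like gene that starts 248 bp from ZFAS1, had a log2 ratio of 0.52 (61.3 and 42.7 CPM), compared with -1.02 for ZFAS1.

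ZBTB37, a zinc finger gene whose start lies 800 bp from that of GAS5, had a log2 ratio of -0.24 (26.7 CPM in REH, 31.5 in 697), compared with -2.03 for GAS5. TRAF7, which starts 293 bp from SNHG19, had a ratio of -0.05 (165.7 and 171.4 CPM), compared with -0.85 for SNHG19. BARD1 and ACAA2, beside SNHG31 and SNHG22, had ratios of -0.20 and -0.39. The reverse order was found for RPS2, a ribosomal protein gene that itself hosts snoRNAs and starts 54 bp from SNHG9, with a log2 ratio of -1.45 (287.0 CPM in REH, 785.5 in 697) compared with -0.27 for SNHG9. For SLC3A2, ZNFX1, ZBTB37 and TRAF7 the coding gene lay closer to 0 than the host. The counting intervals of BARD1 and SNHG31 overlapped, and SNHG22 had too few reads. Shares for other gene pairs were not computed, so these pairs are descriptions only.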

How the data were processed

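The authors deposited raw read counts per gene, 1 file for each of REH and 697, made with the gene counter of STAR (2.4.2a in the methods). The submitters' processing notes name hg19 and the methods hg38, and the labels describe ribodepleted, stranded libraries where the methods describe poly(A) selection. First-strand reads made up 50.1% and 50.2% of stranded reads, so the column without strand was used, in which sense and antisense reads cannot be told apart and reads shared by overlapping genes are dropped. Multimapping reads are not counted. No other per-sample column was left out.

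Symbols, biotypes, exons and positions came from GENCODE 44 (51996 of 57773 IDs matched). RefSeq tables gave snoRNA positions and starts. Genes that reached 10 reads in either library were compared. Totals were scaled by TMM in edgeR 4.0.16 under R 4.3.3 (factors 1.11 for REH and 0.899 for 697), and ratios had 0.5 reads added to each count. Because each line has 1 library, no model was fitted and no p-value is given. Apart from the order-statistic interval of the median, intervals are exact 95% Clopper-Pearson intervals of counting error, and duplicate reads are not independent molecules. The ratio code was tested on simulated data.

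Genes named in full were the 5 most abundant per kb in each line, those with an absolute log2 ratio of 1 or more, and GAS5, DANCR, ZFAS1, EPB41L4A-AS1, SNHG1, SNHG5, SNHG12, SNHG14, SNHG15 and SNHG29, and in other lists the extremes, all core snoRNP genes and start-sharing partners. The family and all lists were chosen with earlier results of these data known. Nested snoRNA examples were picked after their values were seen. The lowest gene of the NMD list is not reported here.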

Additional observations from a re-analysis of the deposited data

How the results depend on the processing

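The alternatives were unscaled totals, size factors of DESeq2 1.42.0, TMM on protein-coding genes alone, 5 reads added, minimums of 1 and 50 reads, and each strand column. Unscaled totals moved the median log2 ratio of host genes to -0.51, of coding hosts to -0.87 and of assembly factors to 0.21, left 1 host gene higher in 697 at a log2 ratio of 2, turned SNHG15 to 0.16, and moved 21 other host genes by more than their counting interval. The second strand column also left 1 host gene higher in 697 at a ratio of 2, since GAS5 came to -1.98. It moved 6 host genes by more than their counting interval, among them GAS5, SNHG29 and SNHG7. The first strand column moved 1, SNHG7, from -0.74 to -0.51. Reads of SNHG7 assigned by strand added up to 1.45 times its reads without strand in REH and 1.28 times in 697. A minimum of 1 read raised the host genes higher in REH at a ratio of 1 to 4, by adding SNHG22 and SNHG27. The count higher in 697 at a ratio of 1 ran from 9 to 12, and the host median from -0.84 to -0.51. No paired analysis was possible because 1 library was made per line, and for the same reason none could be left out. Depth limits SNHG18 and SNHG11, which rest on 0 reads and 1 read in a line: with 5 reads added their fitted ratios shrank from 6.76 to 3.52 and from -8.12 to -6.14.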
